A study of Mus musculus with 6 samples.

Results

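Connexins are the membrane proteins that build gap junctions, the channels through which neighbouring skin cells exchange ions and small molecules. The 4 connexin genes described here, Gja1, Gjb2, Gjb5 and Gjb6, are those of the epidermal set given for this array, and each was taken from the probe set whose only annotated symbol was that gene. Each had 1 such probe set, so that all 4 were measured, of 19938 genes in all. Transcript levels came from an Affymetrix mouse gene array hybridised with total RNA of whole skin biopsies from BALB/c mice, an inbred albino strain, which were male and 5 to 6 weeks old. There were 3 groups of 2 arrays each: intact skin, wounds on day 1 and wounds on day 4. A wounded mouse carried 2 full-thickness back wounds of 4 mm that stopped at the fascia, and an 8 mm punch collected each wound with its surroundings, so that the wound was 25% of the sampled area. No group carried a genetic change or a drug. The labels name the replicates biological but do not say if a single mouse or pooled mice gave the RNA of an array, so p-values measure only the spread between these samples and n counts arrays. In such biopsies fewer cells of a type and less RNA per cell cannot be told apart.

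Connexins assemble into rings in the membrane, and rings of adjoining cells dock to form a channel. Gja1 encodes connexin 43 (Cx43), which is found in basal and spinous keratinocytes and also in fibroblasts, endothelium and hair follicles. Gjb2 encodes Cx26 and Gjb6 encodes Cx30, closely related connexins of stratified epithelium, inner ear and hair follicle, and in humans changes in either gene cause deafness or skin disease. Gjb5 encodes Cx31.1, a connexin of stratified epithelia. In rodent skin wounds Cx43 protein is known to be lost from keratinocytes at the wound edge early after injury, whereas Cx26 and Cx30 are known as connexins of the wound-edge and hyperproliferative epidermis.

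Values are log2 intensities made with RMA, a method that corrects background, equalises the arrays' distributions and summarises probes, so a difference of 1 stands for a 2-fold change. Medians over all probe sets lay between 6.89 and 6.93 on the 6 arrays, and replicates correlated across genes with r = 0.9891 on day 1, 0.9861 on day 4 and 0.9967 in intact skin, where genes are not independent replicates. The keratinocyte keratin Krt5 lay between 12.61 and 12.71 on all 6 arrays and Krt10, a keratin of differentiated epidermis, between 12.49 and 12.83. Krt14 ran from 11.94 to 12.60 and Krt1 from 11.56 to 12.56. Krt14, Krt1 and Krt10 were all lowest in intact skin. So epidermal transcripts were present in every biopsy, though not all at a constant level. None of the 4 connexins lay under the lower quartile of any array. Groups were compared with limma, adjusting p-values over all genes by the Benjamini-Hochberg method with a threshold of 0.05. By this rule 29.3% of all genes passed for day 1 wounds against intact skin, 14.7% of them upward and 14.6% downward as shares of all genes. For day 4 wounds against intact skin 26.9% passed, with 14.8% upward and 12.1% downward. Between day 4 and day 1 wounds 2.23% passed, with 1.09% upward and 1.14% downward.

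In day 1 wounds 3 of the 4 connexins fell against intact skin and none rose, where 29.3% of all genes passed and 14.6% fell. Gja1 had log2 intensities of 11.25 and 11.12 in day 1 wounds, against 12.05 and 12.16 in intact skin. The groups lay well apart, and Gja1 was 1.89-fold lower (log2 change −0.92, SE 0.16, limma adjusted p = 0.00663), with 8.42% of genes showing a larger change in either direction. Leaving out day 1 wound replicate 2 took the adjusted p of Gja1 to 0.052, and leaving out intact skin replicate 2 took it to 0.0522, so that the call was lost each time. Gjb2 had 11.59 and 11.67 in day 1 wounds, against 12.28 and 12.35 in intact skin. It was 1.61-fold lower (log2 change −0.69, SE 0.08, limma adjusted p = 0.00148), and its gap between groups was several times the gap between replicates. Gjb6 had 8.32 and 8.23 in day 1 wounds, against 8.94 and 8.88 in intact skin. It was 1.55-fold lower (log2 change −0.64, SE 0.08, limma adjusted p = 0.00164), a change close in size to that of Gjb2. Gjb5 had 8.40 on both day 1 arrays, against 8.71 and 8.61 in intact skin. Its day 1 arrays also lay under both intact arrays, but the log2 change of −0.26 (95% interval −0.60 to 0.08, limma adjusted p = 0.219) did not pass the test. In all, both day 1 values lay under both intact values for each of the 4 connexins, as they did for 38.2% of all genes.

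**Figure D1:**
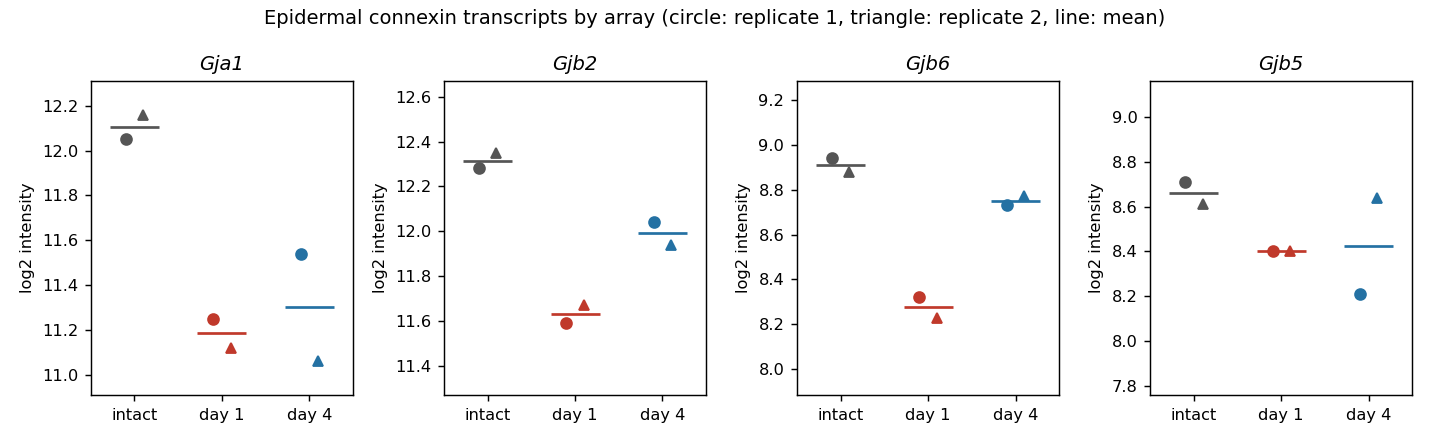
Log2 intensity (vertical axis) of Gja1, Gjb2, Gjb6 and Gjb5 in intact skin, day 1 wounds and day 4 wounds (horizontal axis), with circles for replicate 1, triangles for replicate 2 and lines for the group mean; the panels span the same range of log2 units. Gja1 stayed between 11.06 and 11.54 in wounds of both days, Gjb2 and Gjb6 were lowest on day 1, and the day 4 values of Gjb5 were 8.21 and 8.64.

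The bases just before the transcription start are shown for the 3 genes that fell together on day 1. They are RefSeq sequences of build GRCm38.p6, each 250 bases ending at the base before the annotated start and read along the gene's strand. They lie at chr10:56377050-56377299 (plus strand) for Gja1, chr14:57104703-57104952 (minus strand) for Gjb2 and chr14:57133612-57133861 (minus strand) for Gjb6, all upstream of the transcribed region. Capitals mark matches, on either strand, to an AP-1 motif (TGANTCA), a GC box (GGGCGG) or a TATA box (TATAAA), and no matches overlapped here.
Gja1: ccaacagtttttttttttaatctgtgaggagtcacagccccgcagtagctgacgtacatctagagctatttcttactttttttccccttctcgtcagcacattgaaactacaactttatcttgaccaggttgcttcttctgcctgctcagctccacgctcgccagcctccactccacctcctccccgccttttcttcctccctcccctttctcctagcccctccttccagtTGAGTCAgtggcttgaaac
Gjb2: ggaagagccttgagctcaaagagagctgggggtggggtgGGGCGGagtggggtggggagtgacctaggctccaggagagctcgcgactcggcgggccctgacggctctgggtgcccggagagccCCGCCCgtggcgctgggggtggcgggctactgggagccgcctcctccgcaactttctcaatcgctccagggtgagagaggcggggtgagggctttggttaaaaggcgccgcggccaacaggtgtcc
Gjb6: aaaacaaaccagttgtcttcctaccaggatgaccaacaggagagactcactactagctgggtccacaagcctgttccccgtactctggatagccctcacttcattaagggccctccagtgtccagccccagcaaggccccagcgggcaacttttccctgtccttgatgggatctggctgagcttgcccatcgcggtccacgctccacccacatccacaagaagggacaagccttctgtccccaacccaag
The Gja1 window held an AP-1 match that begins 19 bases before the start, a motif found in 6.75% of the 32851 promoter windows of the same length. The Gjb2 window held 2 GC boxes, 211 and 126 bases before the start and on opposite strands, a motif found in 32.7% of windows. Its GC content was 69.2%, and 89.6% of windows had less. The Gjb6 window had a GC content of 56.8% and none of these letters, and that of Gjb5 (not printed) held a TATA box match on the other strand, 243 bases before the start, a motif found in 12.4% of windows. The 3 printed windows shared none of the searched motifs, and use of any motif in skin was not tested. On the RefSeq map Gjb2 and Gjb6 lie next to each other on chromosome 14, with 1 predicted gene between their start sites, while Gja1 is on chromosome 10 and Gjb5 on chromosome 4.

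In day 4 wounds 2 of the 4 were below intact skin by the test and none was above, where 26.9% of all genes passed and 12.1% fell. Gja1 had 11.54 and 11.06 in day 4 wounds, against the 12.05 and 12.16 of intact skin. It was 1.75-fold lower (log2 change −0.81, SE 0.16, limma adjusted p = 0.0128), with its day 4 replicates further apart than those of the other groups. Gjb2 had 12.04 and 11.94 in day 4 wounds, against the 12.28 and 12.35 of intact skin. It was 1.25-fold lower (log2 change −0.33, SE 0.08, limma adjusted p = 0.0269), a change that 27.3% of genes exceeded. Gjb6 had 8.73 and 8.77 in day 4 wounds, against 8.94 and 8.88 in intact skin. Its day 4 arrays lay under both intact arrays, but the log2 change of −0.16 (95% interval −0.34 to 0.02, limma adjusted p = 0.167) did not pass. Gjb5 had 8.21 and 8.64 in day 4 wounds, overlapping the 8.71 and 8.61 of intact skin (log2 change −0.23, 95% interval −0.57 to 0.10, limma adjusted p = 0.263). Both day 4 values lay under both intact values for Gja1, Gjb2 and Gjb6, as they did for 36% of all genes. The calls on day 4 depended on single arrays. Gja1 no longer passed once intact skin replicate 1 (adjusted p = 0.0657) or replicate 2 (adjusted p = 0.0805) was dropped. Gjb2 no longer passed once day 4 wound replicate 2 (adjusted p = 0.117), intact skin replicate 1 (adjusted p = 0.0912) or intact skin replicate 2 (adjusted p = 0.128) was dropped. Gjb5 did pass, at an adjusted p of 0.0359, once day 4 wound replicate 2 was dropped.

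Between the wound days Gjb6 was the only one of the 4 connexins past the threshold, with 8.73 and 8.77 in day 4 wounds, against 8.32 and 8.23 in day 1 wounds. It was 1.39-fold higher on day 4 (log2 change 0.48, SE 0.08, limma adjusted p = 0.0398), and 5.67% of genes changed more between the days. By this test 2.23% of all genes differed between the days and 1.09% were higher on day 4. The call was lost whichever single array was left out (adjusted p = 0.0938 to 0.194), at log2 changes of 0.43 to 0.52. Over the whole array 444 genes passed in this comparison, and between 14 and 184 passed with 1 array left out. Gjb2 showed the same order of groups, with 12.04 and 11.94 in day 4 wounds above the 11.59 and 11.67 of day 1 wounds. Its log2 change of 0.36 (95% interval 0.17 to 0.55) missed the threshold with limma (adjusted p = 0.0798). Both day 4 values lay above both day 1 values for Gjb2 and Gjb6, as they did for 25.6% of genes. For Gja1 the days overlapped (log2 change 0.12, 95% interval −0.27 to 0.50, limma adjusted p = 0.756), and so they did for Gjb5 (log2 change 0.03, 95% interval −0.31 to 0.36, limma adjusted p = 0.949). The comparisons share arrays, so the low day 1 values of Gjb6 enter both its fall on day 1 and its rise between the days.

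Within each array the log2 value of Gjb2 minus that of Gjb6 was 3.27 and 3.44 in day 1 wounds and 3.31 and 3.17 in day 4 wounds, against 3.34 and 3.47 in intact skin. The value of Gja1 minus that of Gjb2 was −0.34 and −0.55 in day 1 wounds and −0.50 and −0.88 in day 4 wounds, against −0.23 and −0.19 in intact skin. Gja1 thus lost ground to Gjb2 on every wound array, most on day 4 wound replicate 2. These differences compare probe sets of unequal brightness and show only unequal change, and they were not tested.

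Among the 5909 genes with an established name that differed among the 3 groups by limma's F test, those whose 6 array values followed each connexin most closely were picked by Pearson's r, as a description over 6 arrays that fall into wounds and intact skin. For Gja1 these were Sstr2 (r = 0.998), Crocc2 (r = 0.998) and Ly6g6d (r = 0.998). Ly6g6d had 7.96 and 5.96 in day 4 wounds, against 10.07 and 10.21 in intact skin. For Gjb2 they were Naa35, Ubtf and Hook3 (r = 0.997 each), and Hook3 had 9.12 and 9.13 in day 1 wounds, against 9.54 and 9.61 in intact skin. For Gjb6 they were Fam25c, Nrep and Zfp407 (r = 0.997 each). Nrep had 9.56 and 9.40 in day 1 wounds, against 10.44 and 10.28 in intact skin, and stood at 10.08 and 10.20 on day 4. For Gjb5 the closest were Fndc10 (r = 0.911), Bloc1s1 (r = 0.886) and Zfp398 (r = 0.884). The candidates all differed among the groups, which Gjb5 did not by the test in any comparison, so its lower r values cannot be set against those of the other connexins.

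Values of 15 other connexin and pannexin genes were compared. In day 1 wounds 2 of the 15 rose and 1 fell, at a median log2 change of 0.00 (median of all genes −0.04), against 14.7% higher and 14.6% lower over all genes. In day 4 wounds 3 rose and 2 fell, at a median of −0.05 (all genes −0.03), against 14.8% and 12.1%. Between the wound days, where 2.23% of all genes passed, limma called none of them, with 0 also at an unadjusted p under 0.05.

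Gja3, which encodes Cx46, a connexin known mainly from the lens, and which neighbours Gjb2 on chromosome 14, had the largest change of the 19 connexin and pannexin genes measured. It had 7.42 and 7.19 on day 1 and 7.43 and 7.19 on day 4, against 8.81 and 8.72 in intact skin. Wounds of both days lay more than a full log2 unit under intact skin, and Gja3 was 2.75-fold lower on day 1 (log2 change −1.46, SE 0.12, limma adjusted p = 0.000425) and 2.74-fold lower on day 4 (limma adjusted p = 0.00064). These calls held under all 16 alternatives, with a highest adjusted p of 0.011. Between the wound days its log2 change was 0.005 (limma adjusted p = 0.984).

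The connexins of blood vessels were higher in wounds. Gja5, which encodes Cx40 of arterial endothelium, had 6.40 and 6.78 on day 1 and 6.40 and 6.49 on day 4, against 5.80 and 5.90 in intact skin. It was 1.67-fold higher on day 1 (limma adjusted p = 0.00758) and 1.51-fold higher on day 4 (limma adjusted p = 0.0195). Gja4, which encodes the endothelial Cx37, had 6.85 and 6.99 on day 1 and 6.91 and 6.84 on day 4, against 6.58 on both intact arrays. It was 1.27-fold higher on day 1 (limma adjusted p = 0.0222) and 1.23-fold higher on day 4 (limma adjusted p = 0.0391). Gjc1, which encodes Cx45 of smooth muscle and heart, had 7.11 and 7.14 in day 4 wounds, against 6.43 and 6.78 in intact skin, 1.43-fold higher (limma adjusted p = 0.0227), and 6.96 and 6.91 on day 1 (limma adjusted p = 0.0873). Gja10 was 1.26-fold lower on day 4 (log2 change −0.33, limma adjusted p = 0.042) but lay under the lower quartile on all 6 arrays, where a signal cannot be told from background with these files. Except for Gja3, these calls depended on single arrays, and the day 4 calls of Gja4 and Gja10 also on the processing. Gja4 did not pass on day 4 with quantile normalization, median centring, all probe sets tested or the replicate number as a block. Gja10 did not pass with cyclic loess, only the 2 groups compared or all probe sets tested. Without intact skin replicate 1 only 1 of the 15 passed on day 1 and 1 on day 4, and without either day 4 array 1 passed on day 4, in each case by a fall. Endothelial markers were higher in the same biopsies: 8 of 10 rose on day 1 and 9 on day 4, where 14.7% and 14.8% of all genes rose. The part of endothelial cells in these connexin values was not tested. The pannexin Panx1, which forms channels not joined between cells, had a log2 change of 0.15 on day 1 (95% interval −0.06 to 0.35) and of 0.005 on day 4 (95% interval −0.20 to 0.21), and did not pass on either day.

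**Figure D2:**
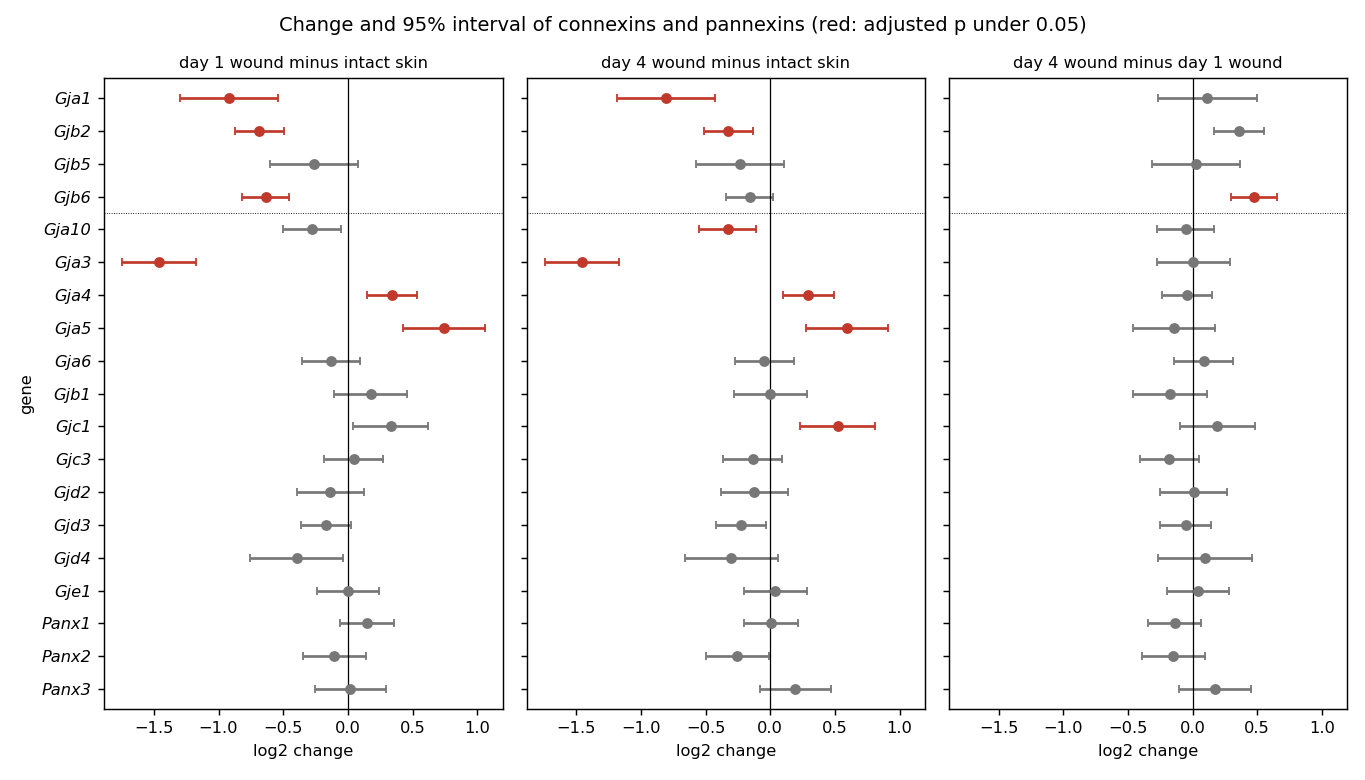
Log2 change with its 95% interval (horizontal axis) for the epidermal connexins (above the dotted line) and the other connexins and pannexins (below it), in the comparisons day 1 wound minus intact skin, day 4 wound minus intact skin and day 4 wound minus day 1 wound; red marks an adjusted p under 0.05. Gja1, Gjb2, Gjb6 and Gja3 lie left of 0 on day 1 while Gja4 and Gja5 lie right of it, and Gjb6 is the only red point between the days.

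**Figure D3:**
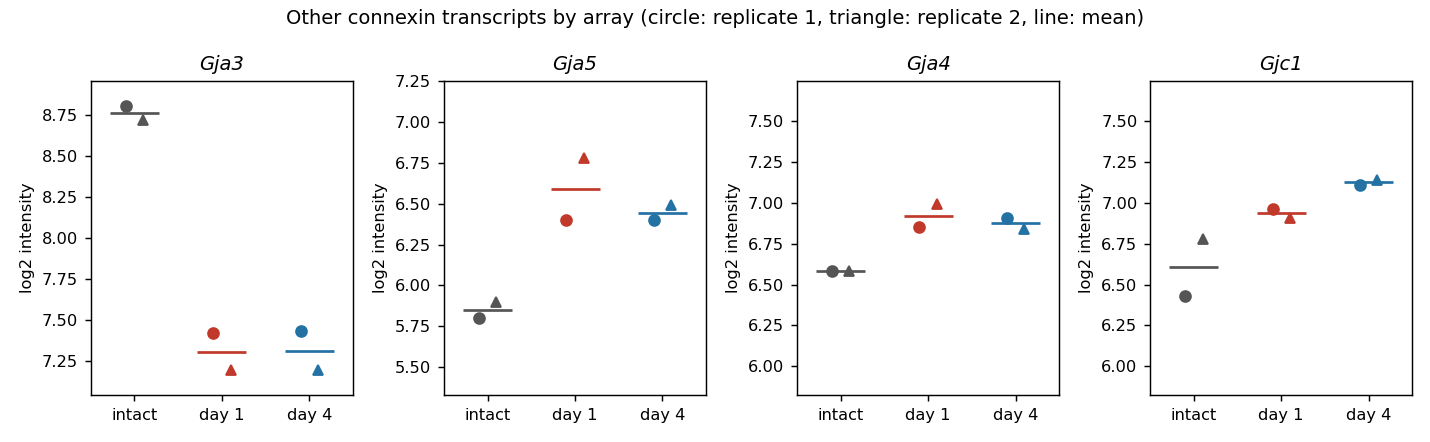
Log2 intensity (vertical axis) of Gja3, Gja5, Gja4 and Gjc1 in intact skin, day 1 wounds and day 4 wounds (horizontal axis), with circles for replicate 1, triangles for replicate 2 and lines for the group mean. Gja3 stood between 7.19 and 7.43 on the 4 wound arrays, Gja5 between 6.40 and 6.78 and Gja4 between 6.84 and 6.99.

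Partners and regulators are genes whose products bind, carry or modify connexins. Of 18 measured 2 rose, 5 fell and 11 did not pass in day 1 wounds, where 14.7% of all genes rose and 14.6% fell. Their median log2 change was −0.05 (all genes −0.04). Prkca, a protein kinase C that phosphorylates Cx43, was 2.40-fold lower (log2 change −1.26, limma adjusted p = 0.00148). Dbn1, whose product drebrin links Cx43 to actin, was 1.55-fold lower (limma adjusted p = 0.00143). Pkp2, a plakophilin known to associate with Cx43 in heart, was 1.93-fold lower (limma adjusted p = 0.00283), and Tjp1, whose product ZO-1 binds the tail of Cx43, was 1.35-fold lower (limma adjusted p = 0.00502). Cnst, encoding the connexin carrier consortin, was 1.30-fold lower. Prkcd and Cav1 rose by 1.33-fold and 1.25-fold. In day 4 wounds 3 rose and 7 fell, where 14.8% of all genes rose and 12.1% fell, at a median of −0.06 (all genes −0.03). Prkca was still 2.19-fold, Pkp2 1.97-fold and Tjp1 1.33-fold lower than intact skin, while Ccn3, a matricellular protein that binds Cx43, was 2.13-fold higher (limma adjusted p = 0.00445) and Prkcd 1.42-fold higher. The count of 10 on day 4 became 5 once day 4 wound replicate 2 was dropped, 4 once intact skin replicate 1 was dropped and 6 once intact skin replicate 2 was dropped. Between the wound days limma called 0 of the 18, where 2.23% of all genes passed. The unadjusted limma p was under 0.05 for Ccn3 and Dbn1, which were higher on day 4, and for Ubqln4 and Prkce, which were lower. It was smallest for Ccn3 (log2 change 0.77, limma adjusted p = 0.0694).

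Other junctions of the epidermis were set beside the connexins. Of 18 tight and adherens junction genes, which seal and join epithelial cells, 15 fell and none rose in day 1 wounds, where 14.6% of all genes fell. Their median log2 change was −0.52 (all genes −0.04). The claudin Cldn8 was 3.18-fold lower (log2 change −1.67, limma adjusted p = 0.00116), Nectin4 1.87-fold (limma adjusted p = 0.0013), occludin (Ocln) 1.85-fold (limma adjusted p = 0.00147) and Cldn12 1.53-fold lower (limma adjusted p = 0.00199). The E-cadherin gene Cdh1 was 1.21-fold lower. In day 4 wounds 12 fell and none rose, where 12.1% of all genes fell, at a median of −0.42 (all genes −0.03). Cldn4 was 2.32-fold, Nectin4 1.85-fold, Cdh3 1.78-fold and Cldn12 1.57-fold lower. Without day 1 wound replicate 2 or intact skin replicate 1 the day 1 count was 9 or 8, and without either intact array the day 4 count was 7. Between the days, where 1.14% of all genes fell, 1 of the 18 fell, Cldn23, at a log2 change of −0.50 (limma adjusted p = 0.0488). That count was 0 with any single array left out, with only the 2 groups compared and with the replicate number as a block. Desmosomes are the spot junctions that bind keratin filaments. Of 10 measured desmosome genes 3 fell and none rose on day 1, at a median of −0.08, where 29.3% of all genes passed and 14.6% fell: Dsc2 was 3.97-fold, Dsg2 2.81-fold and Pkp3 1.87-fold lower, whereas Dsp had a log2 change of −0.26 that did not pass (limma adjusted p = 0.0648). On day 4, where 14.8% of all genes rose and 12.1% fell, 1 of the 10 rose and 2 fell, at a list median of −0.03. Dsc2 and Pkp3 remained lower by 2.11-fold and 1.62-fold, and Dsg1b, the desmoglein of upper epidermis, was 1.38-fold higher. That count of 3 was 1 without day 4 wound replicate 2 and 1 without intact skin replicate 1.

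**Figure D4:**
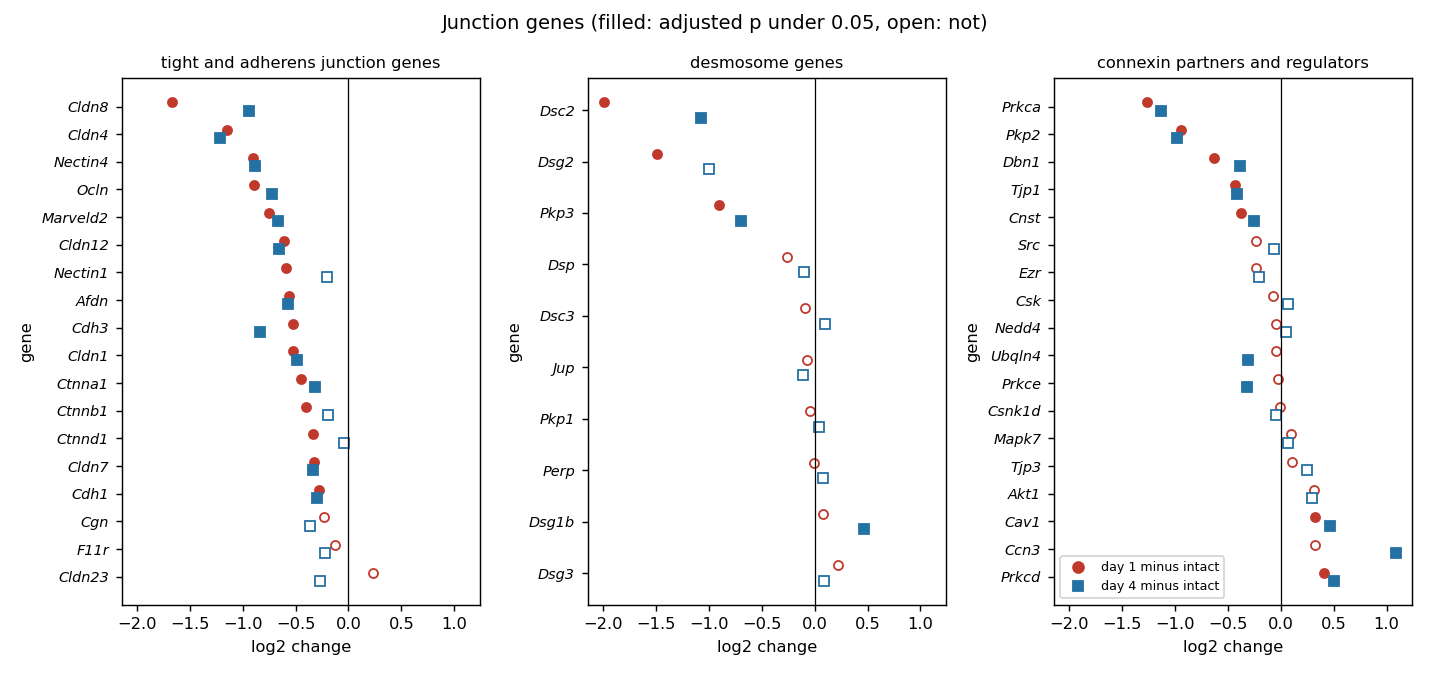
Log2 change (horizontal axis) of each tight and adherens junction gene, desmosome gene and connexin partner or regulator (rows), with circles for day 1 wound minus intact skin and squares for day 4 wound minus intact skin; filled marks have an adjusted p under 0.05. In the first panel 15 circles are filled and all of these lie left of 0, and in the partner panel Prkca and Pkp2 lie lowest on day 1.

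Keratinocyte markers were measured in the same biopsies, and their part in the connexin values was not tested. Over all genes 14.7% rose and 14.6% fell on day 1, and 14.8% rose and 12.1% fell on day 4. Between the days 1.09% of all genes rose. Of 9 basal keratinocyte markers 6 rose on day 1 and 6 on day 4, none fell, and the medians were 0.37 and 0.29, with the laminin receptor chain Itga6 2.15-fold and 1.95-fold higher. Without either intact array 3 of the 9 passed on day 4. Of 14 differentiated epidermis markers 5 rose and 4 fell on day 1, and 6 rose and 3 fell on day 4, at medians of 0.28 on both days. Tgm3, a transglutaminase of cornifying cells and hair, was 2.80-fold lower on day 1 and 1.55-fold lower on day 4. Like Gjb6 it was higher on day 4 than on day 1 (1.81-fold, limma adjusted p = 0.0125). Calm4 instead lay above intact skin, 1.80-fold on day 1 and 2.71-fold on day 4. Casp14 was 2.59-fold higher than intact skin on day 4. Both were also higher on day 4 than on day 1 (1.51-fold and 2.34-fold, limma adjusted p = 0.0232 each). Between the days 3 of the 14 rose, and 0 passed with only the 2 groups compared or once day 1 wound replicate 2, day 4 wound replicate 1 or either intact array was dropped. Without day 1 wound replicate 2, 5 of these 14 passed on day 1. Of 11 wound-activated keratinocyte genes 10 rose on each day, with the keratin Krt16 10.3-fold higher on day 1 and 13.8-fold higher on day 4.

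Hair follicle transcripts moved in the same direction as the connexins and by far more. Of 16 genes of the hair matrix, shaft and root sheath 12 fell on day 1 and 7 on day 4, none rose, and the medians were −4.19 and −3.31. Over all genes 14.6% fell on day 1 and 12.1% on day 4. Foxn1, the regulator mutated in nude mice, was 6.39-fold lower on day 1 and Lef1, a Wnt effector of the hair matrix, 5.64-fold lower. Relative to intact skin the median of the 16 genes was −2.84 and −6.19 on the day 1 arrays and −1.74 and −5.62 on the day 4 arrays, so replicate 1 was the higher array on both days. Gja1 had the same order of arrays in both groups, with differences from the intact mean of −0.86 and −0.99 on day 1 and −0.57 and −1.05 on day 4. Gjb2 had the opposite order on day 1, and Gjb6 and Gjb5 had it on day 4. The part of hair follicle RNA in the connexin values was not tested. With 1 array left out, 5 to 13 hair genes passed on each day (5 on day 1 without day 1 wound replicate 2 or either intact array, 13 on day 4 without day 4 wound replicate 1). On day 1, 5 passed with a robust prior, and on day 4, 11 passed with the replicate number as a block. All 8 melanocyte markers fell on day 1 and 5 on day 4, at medians of −1.31 and −0.96, but the calls of melanocyte genes ranged from 3 to 8 on day 1 and from 0 (without day 4 wound replicate 2) to 7 on day 4 with 1 array left out.

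Marker lists of other cells in the biopsy are read against the 29.3% of all genes that passed on day 1 (14.7% upward, 14.6% downward) and the 26.9% that passed on day 4 (14.8% upward, 12.1% downward). Of 14 leukocyte markers 14 rose on day 1 and 13 on day 4, at medians of 2.64 and 2.43. Of 10 fibroblast markers, cells that also carry Cx43, 5 rose and 1 fell on day 1 and 7 rose and 1 fell on day 4, at medians of 0.39 and 0.65, with Pdgfra 3.34-fold higher on day 1, and 5 passed on day 4 without day 4 wound replicate 2 or intact skin replicate 2. The endothelial medians were 0.93 and 0.70, and 3 of the 10 passed on day 4 without intact skin replicate 1. Of 9 smooth muscle and pericyte markers 3 rose and 2 fell on day 1 and 5 rose and 1 fell on day 4, at medians of 0.08 and 0.28, with 2 to 5 passing on day 1 and 3 to 5 on day 4 when 1 array was left out. Of 8 adipocyte markers 3 fell and none rose on each day, at medians of −0.22 and −0.21, where 14.6% and 12.1% of all genes fell. The day 4 count was smaller without intact skin replicate 1. All 8 skeletal muscle markers rose on day 1 and 6 on day 4, at medians of 0.85 and 0.53, and 2 to 8 passed on day 4 with 1 array left out. How far such cells dilute or add to the connexin signal was not tested.

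**Figure D5:**
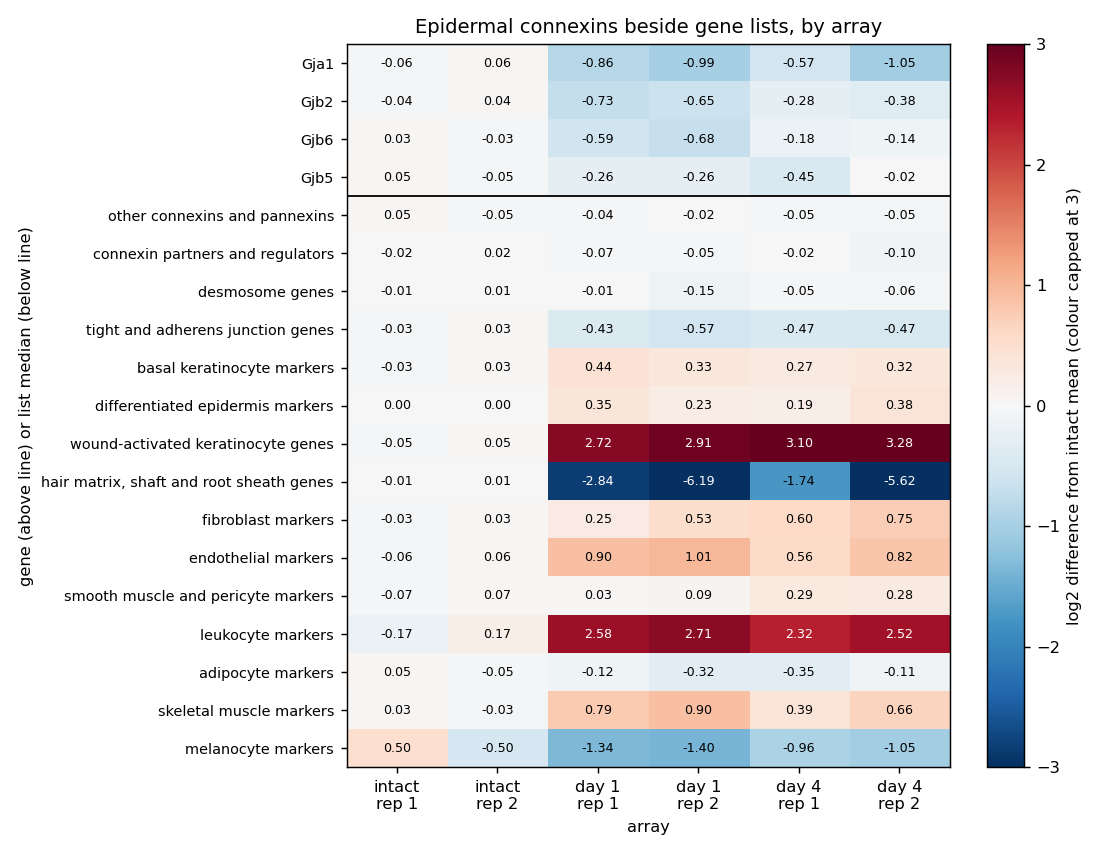
Log2 difference from the mean of the intact arrays (colour and printed value) for the 4 epidermal connexins (above the line) and the median over each list's genes (below it), on each of the 6 arrays (columns). Gja1 is between −0.57 and −1.05 on the wound arrays, basal keratinocyte medians are between 0.27 and 0.44, and hair medians are between −1.74 and −6.19.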

How the data were processed

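The authors deposited log2 intensities, 1 value for each probe set and array, which were made with RMA (no version is given in the sources used here) per the submitters' processing notes. The arrays measured 35556 probe sets. By the platform annotation 21789 carried 1 symbol, 1621 several (left out) and 12146 were not in it. Where a gene had several probe sets the one brightest on average was kept, leaving 19938 genes. Each connexin described had 1 probe set.

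A linear model with 1 mean per group was fitted to all 6 arrays (limma 3.58.1, R 4.3.3), with moderated variances (3 residual and 3.4 prior degrees of freedom). Two-sided p-values received the Benjamini-Hochberg adjustment across the 19938 genes. The F test served only to choose genes of like pattern. The fit was tested on simulated data with known changes. The number of arrays limits the precision, and RMA gives no detection call.

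The members and the 15 gene lists were chosen with earlier results of these data known. Of 186 listed genes 176 were matched, 1 by an older name (Il1f9 for Il36g), and 2 stood in more than 1 list. Named were all 4 connexins, other connexins past the threshold in any comparison, up to 4 genes of each list by smallest p, and the 3 genes most like each connexin. The other list members Cdh1, Cnst, Cav1 and Panx1 were named after their values were seen. Krt5 and Krt10, also outside the rule, were named to check for epidermal transcripts. Promoter sequences and gene order come from RefSeq for GRCm38.p6. The alternatives were other normalizations, priors, filters, probe set rules, 2 groups alone, a replicate block and each array left out.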

Additional observations from a re-analysis of the deposited data

Results flagged for a closer look

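Gjb6 differed between the wound days, measured against the same intact skin: its log2 change from intact was −0.16 on day 4 and −0.64 on day 1, and the test of that difference gave 0.475 (SE 0.08, limma adjusted p = 0.0398). Both day 4 arrays (8.73 and 8.77) lay above both day 1 arrays (8.32 and 8.23). With any 1 array left out the adjusted p was between 0.0938 and 0.194.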

How the results depend on the processing

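Of 192 values of the 4 connexins under 16 alternatives, 171 kept their direction and side of the threshold, 15 lost a call, 2 gained one and 4 turned sign. All falls on day 1 kept their direction, at log2 changes with 1 array left out of −0.985 to −0.855 for Gja1, −0.725 to −0.645 for Gjb2, −0.68 to −0.59 for Gjb6 and −0.31 to −0.21 for Gjb5. On day 4 the ranges were −1.045 to −0.565 for Gja1, −0.375 to −0.275 for Gjb2 and −0.45 to −0.02 for Gjb5. Between the days they were −0.125 to 0.355 for Gja1, 0.43 to 0.52 for Gjb6 and −0.19 to 0.24 for Gjb5. An arm left with 1 array was assumed to vary like the others. Between the days Gjb5 turned to −0.0094 with cyclic loess and to −0.005 with median centring, Gjb2 passed with a mean-variance trend (0.36, adjusted p = 0.0409), and Gjb6 did not pass with only the 2 groups compared (0.475, adjusted p = 0.103) or with all probe sets tested (0.475, adjusted p = 0.0998). The cause was not tested. Over the whole array 5842, 5371 and 444 genes passed on day 1, on day 4 and between the days. With 1 array left out these counts were 3149 to 5673, 2246 to 4907 and 14 to 184, and 17 between the days with only those 2 groups. Of the other connexins 1 to 4 passed on day 1 and 1 to 4 on day 4. Median centring gave 2574 higher and 3345 lower on day 4, against 2958 and 2413, and cyclic loess gave 195 and 310 between the days, against 217 and 227. Same-numbered day 1 and day 4 arrays deviated together (r = 0.6853 across genes), the other pairs of groups hardly (0.0139 and 0.0227). The labels do not say that numbers pair samples. With the replicate block the day 1 changes were −0.92 for Gja1 and −0.685 for Gjb2, Gjb6 between the days was 0.475 (adjusted p = 0.0459), and no call of the 4 connexins changed. Of 630 counts of the other lists under the alternatives, 101 moved by over 1.5 times.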
